A study of Mus musculus with 80 samples.

Results

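Slc14a2, Icos, Adtrp, Mrln, Reg4, Cd101, Wwox, Zfp366 and Slc13a4 are 9 mouse genes over which H3K27me3 peaks reached further in Kdm6b knockout fibroblasts than in controls in each of 6 pairs of peak lists. They were chosen by that measurement: each was higher in knockout in all 6 pairs, and they hold ranks 1 and 3 to 10 when all genes are ordered by the p of limma's moderated test of the 6 differences. They are 9 of 21631 protein-coding genes with a position and of 9844 genes with enough peak coverage to be tested. Because the knockout comparison chose them, its values for these 9 genes are a description and carry no test below. The gene at rank 2, Hsd11b1, is not among the 9.

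The libraries are CUT&RUN, in which an antibody, here against histone H3 trimethylated at lysine 27 (H3K27me3), directs a nuclease that releases the marked chromatin for sequencing. Fibroblasts were purified with magnetic beads from enzyme-digested uterine tissue. The knockout mice carried Kdm6b f/f with Pgr-Cre, expressed from the progesterone receptor locus, or with Pdgfra-Cre, expressed in mesenchymal cells such as fibroblasts. They are called cKO here, and the controls were Kdm6b f/f; all these females were mated with B6 males. There are 6 pairs of groups. Of the 5 Pgr-Cre pairs, 3 are from the inter-implantation site (IIS), taken on gestation day (GD) 5.5, GD8.5 or GD14.5. The other two Pgr-Cre pairs are from implantation site (IS) tissue of GD14.5 or GD18.5, as is the single Pdgfra-Cre pair, of GD14.5. Females of the hybrid strain B6CBAF1/J gave 4 further groups: uterus at GD0.5, IIS at GD5.5 after natural mating, uterus at GD5.5 of females that had mated with vasectomized males, and uterus of non-pregnant females given progesterone for 3 days. Each group has 3 samples that were pooled into 1 peak list, so replicate values do not exist within a list and read depth is unknown. No age is given for the females, and an H3K27me3 peak list does not measure the Kdm6b deletion itself.

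H3K27me3 is laid down by Polycomb repressive complex 2 and is found over silent genes, often as broad domains. Kdm6b, also called Jmjd3, is a demethylase that removes it. Values below are coverage, the share of bases, in percent, that peaks take up in a window made of the gene span and 2 kb beyond each end, and differences are in percentage points. The lists are lenient: in the 12 lists of the Kdm6b set the median fold of a peak over background was 1.12 to 1.15, and 0.0501% to 0.830% of peaks had a -log10 q of at least 2. They hold 221350 to 287629 peaks over 609 to 740 Mb, and the cKO list covered more bases than its control in 5 of the 6 pairs, the exception being GD14.5 IIS. When every list was brought to the same covered length, all 9 genes were still higher in cKO in 6 of 6 pairs, by 26.7 to 55.8 points. The Pgr-Cre lists of GD14.5 IIS and IS could come from the same females, since the labels do not say, and the pairs are treated as independent by assumption.

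Of the 9 genes, 5 have a promoter entry in RefSeq (GRCm38.p6, the assembly also named mm10), and they differ in whether the gained peaks reach the transcription start. Those of Adtrp, Slc13a4 and Mrln are shown, each as the 250 bases upstream of the start on the gene's own strand, 5′ to 3′, with every CG dinucleotide in capitals. Adtrp is a start that gained, Slc13a4 one that gained in part, and Mrln one that no peak reached. They lie at chr13:41847617-41847866 (minus strand), chr6:35308127-35308376 (minus strand) and chr10:70204414-70204663 (plus strand).
Adtrp: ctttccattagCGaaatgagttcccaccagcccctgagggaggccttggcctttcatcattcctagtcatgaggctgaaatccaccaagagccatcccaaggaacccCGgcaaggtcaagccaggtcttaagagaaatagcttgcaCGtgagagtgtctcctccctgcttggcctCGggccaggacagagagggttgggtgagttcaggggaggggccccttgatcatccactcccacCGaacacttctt
Slc13a4: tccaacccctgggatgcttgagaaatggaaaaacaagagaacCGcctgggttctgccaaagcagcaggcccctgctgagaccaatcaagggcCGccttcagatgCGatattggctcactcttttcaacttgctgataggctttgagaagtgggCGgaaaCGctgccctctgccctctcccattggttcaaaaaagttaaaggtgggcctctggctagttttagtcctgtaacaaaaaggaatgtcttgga
Mrln: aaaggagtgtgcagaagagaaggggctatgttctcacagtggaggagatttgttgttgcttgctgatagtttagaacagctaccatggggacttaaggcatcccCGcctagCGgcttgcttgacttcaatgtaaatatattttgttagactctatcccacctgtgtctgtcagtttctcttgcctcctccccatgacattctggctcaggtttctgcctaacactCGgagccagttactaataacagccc

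A peak overlapped the Adtrp sequence in 6 of 6 cKO lists and in 1 of 6 control lists, that of GD18.5. Within 1 kb either side of its start, 92.6% of bases lay in peaks on average in cKO and 13.2% in control. For Slc13a4 the upstream sequence overlapped a peak in 4 of 6 cKO lists (not in the Pgr-Cre IS lists of GD14.5 and GD18.5) and in 1 control list, that of GD8.5, with 70.1% and 16.0% of the surrounding bases covered. In Mrln no list of either group had a peak there or within 1 kb. The upstream bases of Cd101 overlapped a peak in 1 cKO list and 0 control lists, with 46.7% and 0% covered within 1 kb, and those of Reg4 in 2 and 1. A second Adtrp start, whose upstream bases overlap those printed, gave the same counts of 6 and 1. The motif searched was CG, which reads the same on both strands: Adtrp and Slc13a4 hold 5 each, Mrln 3, and Cd101 and Reg4 2 each. The median over all 32851 promoter entries of that length is 6, and 92.1% of them hold at least 1.

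The members include a pair of transporters. Slc14a2 (chr18:78146144-78596950) encodes the urea transporter of the kidney collecting duct, and its 451 kb span is longer than 97.8% of tested genes. In the order GD5.5, GD8.5 and GD14.5 IIS, GD14.5 IS, GD18.5 IS and Pdgfra-Cre GD14.5 IS, its coverage was 51.4%, 54.4%, 56.3%, 59.9%, 60.0% and 61.0% in cKO and 15.6%, 10.5%, 14.6%, 18.3%, 19.7% and 14.7% in control. The lowest cKO list was 31.7 points above the highest control list. The mean difference was 41.6 ± 3.56 points (SD, n = 6 pairs). Slc13a4 (chr6:35267953-35308126, 40.2 kb) encodes a sodium-coupled sulfate transporter. In the same order it held 66.6%, 62.7%, 60.3%, 64.5%, 57.9% and 61.1% in cKO and 31.5%, 21.4%, 24.9%, 22.8%, 26.8% and 11.4% in control. The cKO lists lay within 57.9% to 66.6% while the control lists spread from 11.4% to 31.5%, and the mean difference was 39.0 ± 6.61.

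Icos and Cd101 encode surface proteins of immune cells. Icos (chr1:60960773-61000322, 39.5 kb) is the inducible costimulator of T cells, and it held 53.8%, 55.6%, 54.9%, 65.4%, 64.9% and 58.3% in cKO against 17.3%, 18.8%, 25.3%, 30.5%, 22.2% and 21.2% in control. Its mean difference was 36.2 ± 4.22, and in both groups its highest list was GD14.5 IS. Cd101 (chr3:100992189-101029553, 37.4 kb), an immunoglobulin-family protein of myeloid and T cells, had the highest mean cKO coverage of the 9, 76.0%. Its cKO lists held 83.9%, 86.8%, 72.4%, 72.4%, 74.4% and 65.9% and its control lists 36.5%, 23.4%, 22.9%, 23.8%, 31.6% and 24.7%, a mean difference of 48.8 ± 7.90. The GD5.5 and GD8.5 cKO lists stood above the other 4, and the GD8.5 difference of 63.5 was the largest single difference of any of the 9 genes.

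Adtrp and Mrln had the largest mean differences beside Cd101. Adtrp (chr13:41763145-41847616, 84.5 kb) encodes a membrane hydrolase of fatty acid esters that was named for its regulation of tissue factor pathway inhibitor. It held 66.3%, 70.2%, 76.5%, 75.3%, 74.3% and 70.7% in cKO and 19.4%, 11.5%, 22.4%, 30.8%, 34.4% and 25.9% in control, 48.1 ± 6.96 apart. Mrln (chr10:70204664-70219711, 15.0 kb) encodes myoregulin, a micropeptide of skeletal muscle that inhibits the calcium pump SERCA. It held 69.4%, 75.9%, 65.5%, 65.1%, 71.8% and 73.8% in cKO and 30.3%, 15.7%, 15.0%, 14.9%, 22.9% and 14.1% in control. Mrln thus had the largest mean difference, 51.4 ± 7.81, and its nearest lists were 34.8 points apart, the widest gap of the 9.

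Reg4, Wwox and Zfp366 had the smallest mean differences. Reg4 (chr3:98222138-98236748, 14.6 kb), a secreted lectin of the gut, held 57.3%, 56.1%, 54.1%, 64.5%, 65.0% and 53.3% in cKO and 34.9%, 25.6%, 28.4%, 37.7%, 39.2% and 29.5% in control. It had the highest mean control coverage of the 9, 32.6%, and its difference of 25.8 ± 2.79 varied least between pairs in points. Wwox (chr8:114439635-115352712) encodes a WW-domain oxidoreductase and spans a common fragile site; at 913 kb it is longer than 99.4% of tested genes. It held 52.1%, 51.7%, 50.5%, 61.3%, 54.3% and 57.1% in cKO and 27.5%, 17.6%, 20.5%, 27.5%, 28.2% and 21.9% in control, a difference of 30.6 ± 4.50. Zfp366 (chr13:99184823-99247032, 62.2 kb) encodes a zinc finger repressor known from dendritic cells. Its cKO lists held 38.7%, 40.1%, 47.4%, 54.2%, 50.8% and 49.7% and its control lists 14.6%, 20.7%, 21.2%, 27.2%, 21.4% and 22.0%, a difference of 25.6 ± 3.51, and its nearest lists were 11.5 points apart, the narrowest gap of the 9.

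**Figure D1:**
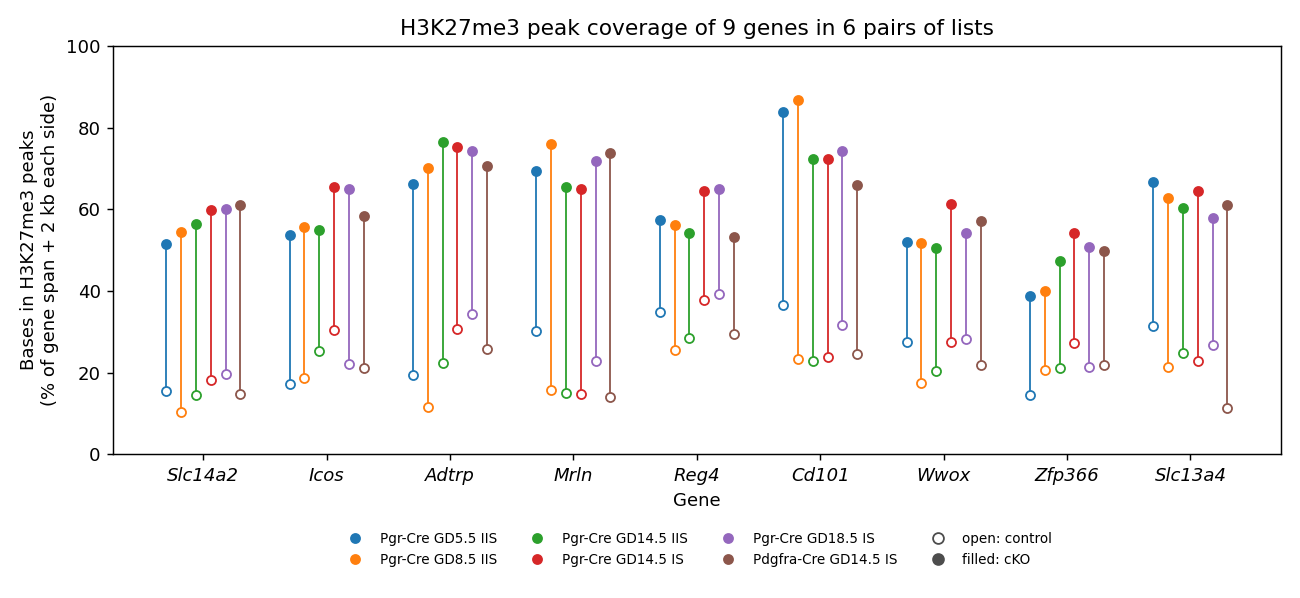
Coverage of each of the 9 genes (y axis, percent of the gene span plus 2 kb either side inside H3K27me3 peaks) in the 12 lists of the Kdm6b set, with a line joining the control (open) and cKO (filled) list of each pair. Every filled point lies above every open point of the same gene, with gaps from 11.5 points in Zfp366 to 34.8 in Mrln.

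In all 9 genes the lowest cKO list lay above the highest control list. Among all 9844 tested genes 12.2% were higher in cKO in all 6 pairs and 3.95% had groups that did not overlap; the choice of the 9 genes fixes their own counts, so nothing is read from this. limma called 8.68% of tested genes higher and 8.44% lower at an adjusted p under 0.05. At equal covered length the counts were 282 higher and 429 lower in place of 854 and 831. The genes just outside the 9 had mean differences within the range of those inside, 36.1 points in Hsd11b1, 39.7 in Tprg and 32.6 in Cdh17. Hsd11b1, which regenerates active glucocorticoid, averaged 49.7% in cKO and 13.6% in control, Tprg (rank 11) 47.4% and 7.73%, and Cdh17, an intestinal cadherin (rank 12), 51.2% and 18.6%. In control Hsd11b1 and Tprg lay below all 9 genes, of which Slc14a2 was lowest at 15.6%. Slc13a4, at rank 10, was the last gene inside.

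By stage, the median difference over the 9 genes was 35.7 points at GD5.5 IIS, 41.3 at GD8.5 IIS, 35.4 at GD14.5 IIS, 41.7 at GD14.5 IS and 39.9 at GD18.5 IS. The median over all tested genes in the same pairs ran from -1.84 to 0.595. GD8.5 gave the largest difference for 4 genes (Adtrp, Mrln, Reg4 and Cd101), and GD5.5 the smallest for 4 (Slc14a2, Mrln, Reg4 and Wwox). From GD5.5 to GD8.5 the control list was lower in 7 of 9 genes and the cKO list higher in 6, with no share over all genes given beside these counts. Zfp366 went the other way in its control lists, from 14.6% to 20.7%, and had its smallest difference, 19.4 points, at GD8.5. Each stage has 1 list per group, so these contrasts between stages were not tested.

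Site was compared at GD14.5 with Pgr-Cre. There the cKO minus control difference was larger at IS than at IIS in 5 of 9 genes, by at most 6.27 points (Slc13a4), and smaller in 4, with a change of -9.54 in Adtrp. Coverage itself was higher at IS than at IIS in 7 of 9 genes in control and in 7 of 9 in cKO. The IS and IIS lists covered 703 and 731 Mb in control and 740 and 685 Mb in cKO. The part of list length was not tested, and shares over all genes are not given beside these counts. The peak names of the 2 Pgr-Cre GD14.5 IS lists show a separate run of peak calling, so site and run cannot be told apart, and the contrast of sites has no test. Without the Pgr-Cre GD14.5 IS pair the mean differences of the 9 genes ran from 25.3 points (Zfp366) to 51.7 (Mrln).

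With Pdgfra-Cre the 9 genes had a median difference of 41.2 points, against 41.7 with Pgr-Cre at the same stage and site. The difference was larger with Pdgfra-Cre in 7 of 9 genes, by up to 9.42 points in Mrln and 8.06 in Slc13a4, and smaller in Reg4 (a change of -3.08) and Cd101 (-7.43). In 8 of 9 genes the Pdgfra-Cre control list was lower than the Pgr-Cre control list, and in 7 of 9 the cKO list was lower too. Shares over all genes are not given beside the counts of this paragraph. That control list is also the shortest of the set, at 609 Mb, and the median over all tested genes in this pair was 2.86 points. The part of list length in the driver contrast was not tested, and since the Pgr-Cre GD14.5 IS lists come from the separate run, driver and run cannot be told apart. In the comparison of all pairs, without the Pdgfra-Cre pair the mean differences of the 9 genes ran from 25.2 points (Zfp366) to 50.4 (Cd101).

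Bases with a peak in more cKO than control lists made up most of each window, beside stretches without a peak. They came to 59.7% (Zfp366) to 90.8% (Adtrp) of the window, where an excess of 1 list is enough. Bases in at least 5 of 6 cKO lists and at most 1 control list were fewer, 6.63% (Reg4) to 37.1% (Mrln). More control than cKO lists held a peak over at most 2.84% (Reg4). From 2.39% (Adtrp) to 35.5% (Zfp366) of the window had no peak in any of the 12 lists. No base of any of the 9 windows was in all 6 control lists and 0 cKO lists. Segments in all 6 cKO lists and 0 control lists were found in 8 genes, Reg4 having none. They came to 65 segments and 22.3 kb in Slc14a2 (4.91% of its window), 54 and 14.6 kb in Wwox (1.59%), 20 and 5.22 kb in Adtrp (5.90%), and 4 and 1.97 kb in Mrln (10.3%). Cd101 had 7 such segments, Icos and Slc13a4 6 each and Zfp366 3.

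The longest of these segments in Slc14a2 was chr18:78286932-78289023, 2.09 kb long and 31.5% of the way along the span by rising coordinate. In the 6 cKO lists it lay in peaks with folds of 1.17 to 1.29 and -log10 q of 0.0137 to 0.134. The longest in Mrln, chr10:70209813-70211512 (1.70 kb), lay 5.15 kb inside the gene from its transcription start and had folds of 1.17 to 1.44. In Adtrp a segment of 0.595 kb, chr13:41846552-41847146, lay 0.470 kb inside the start, next to the sequence printed above, with folds of 1.22 to 1.28. In Wwox the longest was chr8:114777659-114778568 (0.910 kb), with folds of 1.32 or more. Whether such a segment is exonic or intronic is not given here, because the annotation used holds gene ends only.

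With each span cut into 3 parts of equal length by rising coordinate, the gain was present in each part in 6 of 6 pairs in 7 of 9 genes, Reg4 and Zfp366 being the exceptions. Slc14a2 gained 31.2, 48.0 and 45.8 points in its parts and Wwox 24.9, 28.3 and 38.7. Cd101, on the minus strand, gained 54.1, 57.8 and 43.5 points and Icos 41.6 and 40.4 in its middle and last parts and less in its first. Mrln, on the plus strand, gained 37.1, 75.2 and 57.2 points, so the part with its start gained least. In Reg4, also on the plus strand, the first part was nearly bare in both groups (5.14% in cKO and 1.11% in control) and the gain lay mostly in the last part, 42.1 points. Zfp366 gained 28.8 and 37.6 points in its first and middle parts and 5.54 in the last, where coverage was 7.30% and 1.76%. Slc13a4 gained most in its middle part, 64.0 points, and Adtrp, on the minus strand, in the part that holds its start, 63.0 points, and in the 2 kb beyond that start, 78.4.

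**Figure D2:**
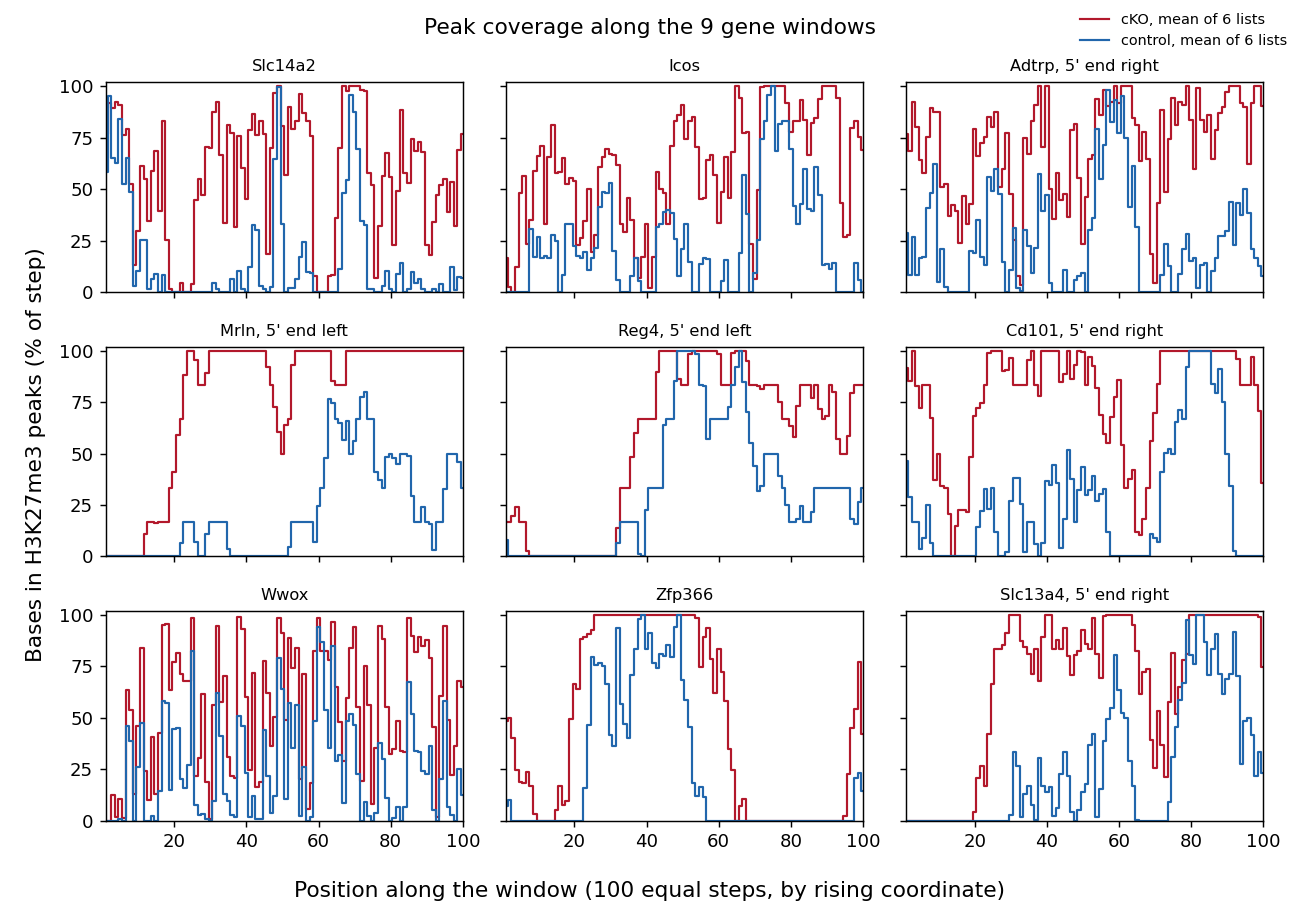
Mean coverage of each 1% step of the 9 gene spans over the 6 cKO lists (red) and the 6 control lists (blue). The x axis runs by rising coordinate, and the y axis gives the percent of bases in peaks. The 2 kb flanks are not drawn, although the title and axis say window. The 5′ end is marked for the 5 genes whose strand is known here. Control peaks stand inside broader cKO plateaus in Mrln, Zfp366, Cd101 and Slc13a4, while the first part of Reg4 and the last part of Zfp366 are nearly bare in both.

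The extra coverage came partly from cKO peaks that met no control peak and partly from cKO peaks that overlapped one. Over the 9 windows and 6 pairs, 1263 cKO peaks overlapped no peak of the paired control list and 774 overlapped at least 1. Wwox gave 639 and 420 of these and Slc14a2 430 and 164, so the pooled values describe mainly these long genes. Peaks of the first kind were the smaller share in Adtrp (47.8%), Mrln (30.8%), Reg4 (28.6%), Cd101 (47.7%) and Slc13a4 (46.2%), and the larger share in the other genes. The first kind were short and weak, with a median length of 0.952 kb, a median fold of 1.12, a highest fold of 1.55 and a highest -log10 q of 0.573. The second kind had a median length of 3.65 kb (the longest 39.0 kb, in Slc14a2), a median fold of 1.22 and a highest -log10 q of 1.62, in Cd101 at GD5.5. Control peaks, 1304 in all, had a median length of 0.960 kb and a median fold of 1.12, and the longest of them, 39.9 kb in Wwox, was longer than any cKO peak. A long peak meets a control peak more easily than a short one, so the split itself favours length in the second kind. The control peaks that were overlapped were not measured apart from the rest. Folds and q values are the authors' own peak values, and no cKO peak in any of the 9 windows reached a -log10 q of 2.

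Peaks were more numerous in cKO in 7 of 9 genes, most clearly in the largest. Slc14a2 had 99.0 ± 4.05 peaks in cKO and 43.8 ± 6.43 in control (SD, n = 6 lists each), and Wwox 176 ± 12.8 and 122 ± 16.5, and in both genes the 2 ranges of counts did not overlap. In Slc14a2, 72.4% of cKO peaks met no control peak, and in Wwox 60.3%. In Mrln, by contrast, cKO lists held fewer peaks than control lists, 2.17 ± 0.753 against 3.50 ± 0.548, but the median length was 4.95 kb against 0.920 kb. Slc13a4 had 6.50 and 6.83 peaks, with median lengths of 3.55 and 0.942 kb. Median peak length was greater in cKO in all 9 genes, and median fold in 8 of 9, Zfp366 having 1.13 in both groups.

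In Zfp366, where 81.0% of cKO peaks met no control peak and the median lengths were 1.31 and 1.19 kb, the few peaks that did meet one were long. In the Pgr-Cre GD14.5 IIS pair its cKO list held 1 peak of 24.7 kb with a fold of 1.53 that overlapped control peaks, whose longest was 6.53 kb and whose highest fold was 1.14. In the GD14.5 IS pair the lengths were 24.9 and 6.64 kb. Cd101 varied between pairs: its longest cKO and control peaks were 24.4 and 6.31 kb at GD8.5 and 22.0 and 5.93 kb at GD5.5, but 21.7 and 16.4 kb in both Pgr-Cre GD14.5 pairs and closer still with Pdgfra-Cre, and at GD18.5 the control peak was the longer, at 17.8 kb. In Mrln the longest peak was longer in cKO in each pair, up to 25.2 kb against at most 2.76 kb in control. A longer peak in these lists can also be several short peaks joined by the caller, and which of these applies was not tested.

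At the far end of Mrln the control lists held the peaks of higher fold. Just past the 3′ end of the gene, reaching into its 2 kb flank, the Pdgfra-Cre control list had a peak at chr10:70221634-70222787 with a fold of 2.48 and a -log10 q of 5.72, and the GD18.5 control list one with 1.69 and 2.03. No other peak of the 12 lists that reaches any of the 9 windows has a -log10 q of 2 or more. Over the bases of those peaks together, the highest fold was 1.89, 1.62, 1.93, 2.07, 1.69 and 2.48 in the control lists, in the order of pairs used above. The cKO lists gave 1.47, 1.41, 1.59, 1.45, 1.34 and 1.79, lower in 6 of 6 pairs, while covering 58.2% to 100% of those bases against 27.8% to 100% in control. Coverage of those bases was higher in cKO in each pair but GD18.5, where both lists covered all of them. The GD5.5 and Pgr-Cre GD14.5 IS control lists also had peaks over those bases with a -log10 q past 2 (2.15 and 3.25), which do not reach the window. In the cKO lists the highest there was 1.97, with Pdgfra-Cre. The cKO peaks there can be much longer than the control peaks, and a broad peak's fold may be an average over its length, so the folds of long and short peaks may not be comparable. This site was singled out after its values were seen.

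Outside the 9 windows the gain ran on beside 8 of them, to both sides of Icos, Adtrp, Reg4 and Zfp366 and to 1 side of Slc14a2, Mrln, Wwox and Slc13a4. In the first 25 kb on either side, 12 of 18 steps were at least 10 points higher in cKO and higher in 6 of 6 pairs, as were 10.8% of all 96128 steps of 25 kb on the autosomes. The median difference over the 18 steps was 22.4 points at 0 to 25 kb, 14.6 at 25 to 50 kb, 11.1 at 50 to 75 kb and 6.21 at 75 to 100 kb, and it was 0 over all autosomal steps. These steps adjoin windows chosen for their gain, so a high value beside them is not independent of the choice.

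Adtrp had the longest run of gained steps directly next to its window. Steps that were at least 10 points higher in all 6 pairs followed each other for 200 kb above its window, upstream of its start, and for 25 kb below; farther below, the 6 steps from 250 to 400 kb gained 40.5 to 55.1 points, each in 6 of 6 pairs. Slc14a2 had 150 kb above and 0 below, where the first step differed by -4.83 points, and Wwox 100 kb above and 0 below. Zfp366 had 75 kb above and 50 below, Icos 25 and 75, and Reg4 50 on each side. Farther above Icos, each step from 125 to 425 kb gained 13.5 to 59.2 points in 6 of 6 pairs. Slc13a4 had 50 kb above, and Mrln 25 kb above, its first step there gaining 61.0 points, and both had 0 below. Cd101 was the exception, with no such step next to it on either side (6.41 and 6.62 points). Its steps from 50 to 125 kb above gained 23.5 to 38.6 points, each in 6 of 6 pairs.

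**Figure D3:**
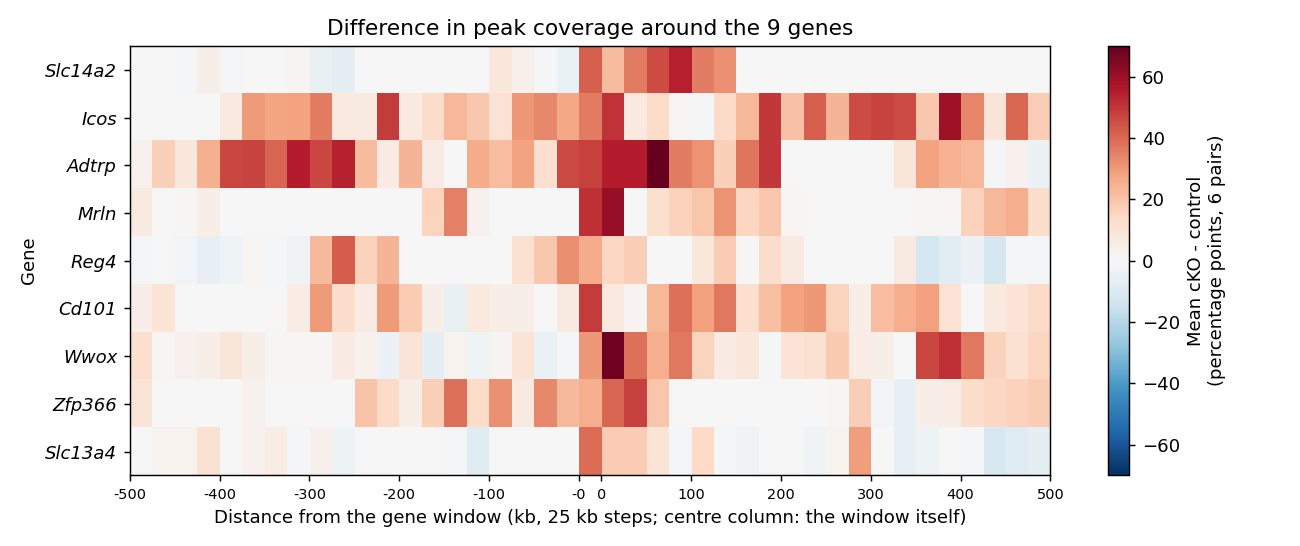
Mean cKO minus control coverage over 6 pairs (colour, percentage points) in 25 kb steps up to 500 kb either side of each gene window, the window itself in the centre column. Next to the window red runs to the right of Slc14a2, Mrln, Wwox and Slc13a4 and to both sides of Icos, Adtrp, Reg4 and Zfp366, and the steps beside Cd101 are pale.

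The 2 nearest protein-coding genes on each side give 36 neighbours, of which 17 had enough coverage to be tested. limma called 6 of these 17 higher in cKO and 0 lower (8 and 0 at an unadjusted p under 0.05), beside 8.68% of all tested genes called higher. No neighbour window overlaps a member window, but neighbours lie near windows chosen for their gain, so their count is not independent of the choice. Among those called, Ctla4 and Fam180a lie within the stretches directly next to a window, and Slc16a9 begins at the edge of one. Beside Icos lie Ctla4 and Cd28, T-cell receptor genes of its family. Ctla4, an inhibitory receptor 44.9 kb away, rose from 38.3% to 71.1% (32.7 ± 8.81 points, SD, limma adjusted p = 0.00329), and Cd28, the main costimulatory receptor, from 1.23% to 28.2% (26.9 ± 7.81, adjusted p = 0.00424). Nedd9, a scaffold protein of focal adhesions 276 kb from Adtrp, rose from 3.20% to 40.6% (37.4 points, higher in 6 of 6 pairs, adjusted p = 0.00487). Tmem170b, between Nedd9 and Adtrp, was nearly bare, at 1.18% and 0.632%.

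The other calls were smaller. Ptgfrn, a prostaglandin F2 receptor inhibitor that neighbours Cd101, rose from 10.7% to 21.8% (adjusted p = 0.0147). Fam180a, beside Slc13a4, rose from 4.86% to 25.3% (adjusted p = 0.0377), and Slc16a9, beside Mrln, a member of the monocarboxylate transporter family, from 2.80% to 7.94% (adjusted p = 0.0492). Of these, Ptgfrn passed in 10 of 13 alternative settings, the exceptions being lists cut to equal length (adjusted p = 0.131), a fold minimum of 1.2 (0.302) and the unpaired fit (0.261). Fam180a passed in 4 of 12 (adjusted p 0.0225 to 0.128) and Slc16a9 in 2 of 10 (0.0117 to 0.125). Ctla4 passed in 13 of 13, and Cd28 in 11 of 11, which do not include equal covered length or the fold minimum, where it was not tested. Nedd9 passed in 12 of 13, the exception being the fold minimum (limma adjusted p = 0.0701). At equal covered length 3 of 13 tested neighbours passed.

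The other immediate neighbours did not pass, were too bare to test, or did not vary. Slc14a1, the erythrocyte urea transporter 4.02 kb from Slc14a2, held 76.1% in cKO and 79.8% in control (adjusted p = 0.445), and Clec3a beside Wwox was at 100% in both. On the far side of Slc14a2, Setbp1 held 0.282% and 0.0367%. Ccdc6 beside Mrln, Hivep1 beside Adtrp, Maf beside Wwox, Ptcd2 beside Zfp366 and 1810058I24Rik beside Slc13a4 were at 0 in both groups. Ttf2 below Cd101 held 1.03% and 0.944%, and Pard3b above Icos 0.229% and 0.00670%. Adam30 below Reg4 had a difference of 19.1 ± 23.5 and Gm52030 below Zfp366 one of 23.6 ± 30.5, and neither passed (adjusted p = 0.166 and 0.184).

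**Figure D4:**
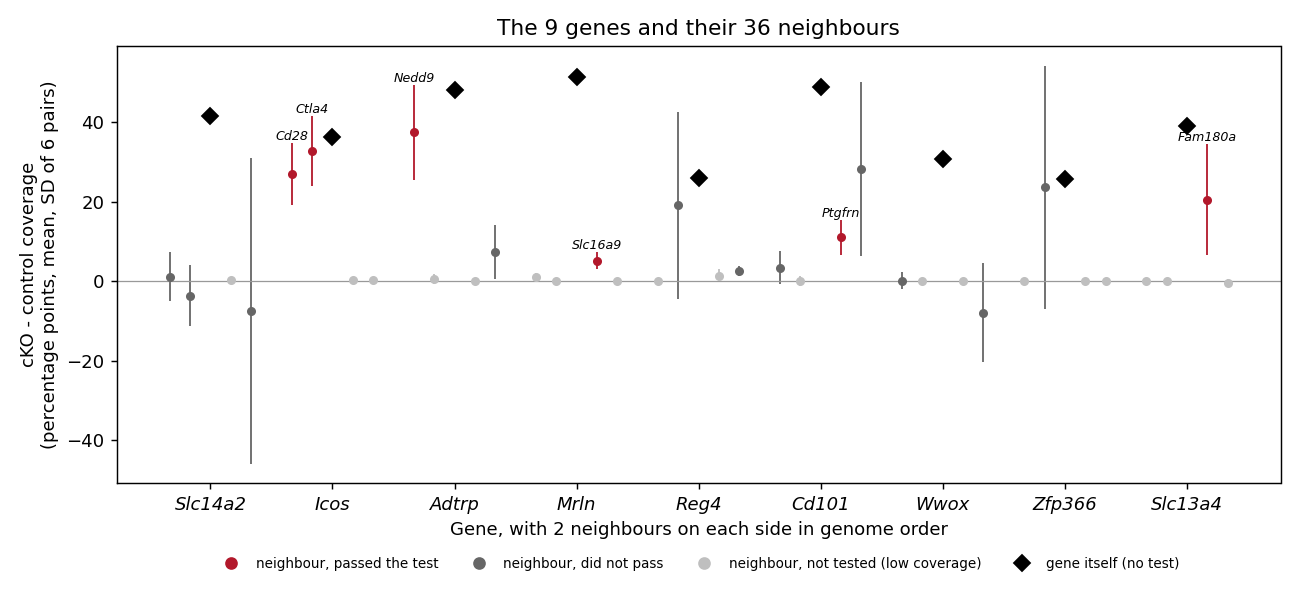
Mean cKO minus control coverage (y axis, percentage points, bars SD over 6 pairs) of the 9 genes (diamonds, no test) and of 2 neighbours on each side in genome order. Neighbours that passed (red, named) lie beside 5 of the 9 genes, and those not tested (pale) sit at or near 0.

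Genes related to the members by family or partnership were set beside them, from lists drawn up with earlier results of these data known. Of 41 relatives 27 were tested, and 6 rose, 2 fell and 19 did not pass, beside 8.68% and 8.44% of all tested genes. The median difference over the 27 was 2.26 points, beside 0.125 over all tested genes, and over the 41 it was 0.109, beside 0 over all genes. Cd28, Ctla4 and Ptgfrn are also neighbours of members and are counted among the neighbours above, so these 3 rises share their dependence on the choice. The CD28 and B7 family held 3 of the 6 rises, in 6 tested genes: Cd28 and Ctla4, the neighbours of Icos, and Cd80, a ligand of both, which rose from 20.4% to 33.3% (adjusted p = 0.0216). Cd80 did not pass in the unpaired limma fit (adjusted p = 0.0518), nor without the GD14.5 IIS pair (0.0516) or the Pgr-Cre GD14.5 IS pair (0.0606). The gene for the ligand of Icos itself, Icosl, was too sparsely covered to test, at 5.38% and 1.27%. Atp2a3, a SERCA pump gene, rose from 7.20% to 18.7% (adjusted p = 0.00939), while Pln and Atp2a2 were at 0 in both groups. Without flanks Atp2a3 did not pass (limma adjusted p = 0.0660), and it was not tested at equal covered length or the fold minimum. Macrod2, another very large fragile-site gene, rose from 17.3% to 29.2% (adjusted p = 0.0199), 1 of 6 tested in that list, and did not pass without the GD8.5, GD14.5 IS or GD18.5 pair (adjusted p 0.0512 to 0.0565). In the same list Cntnap2 and Lrp1b were higher in 0 of 6 pairs, with differences of -6.91 and -5.11 points, and did not pass (adjusted p = 0.0733 and 0.0845).

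Of the 6 relatives of Reg4, 2 were called lower. Reg3g and Reg3b, antibacterial lectins, fell from 67.0% to 14.8% (-52.2 ± 29.1, adjusted p = 0.0204) and from 47.4% to 16.7% (-30.8 ± 19.6, adjusted p = 0.0299), lower in 6 of 6 pairs. Reg3d and Reg3a had differences of -26.9 ± 25.3 and -10.7 ± 16.1 that did not pass (adjusted p = 0.0863 and 0.252), Reg1 was too sparsely covered to test, and Reg2 was at 0 in every list. Neither call held at equal covered length (adjusted p = 0.0944 and 0.516) or without the GD14.5 IIS pair (0.0509 and 0.0678) or the GD14.5 IS pair (0.0559 and 0.0558). The Reg3 genes lie side by side and can share peaks. Among relatives of the transporters, Slc14a1, Slc13a1, Slc13a2, Slc13a3 and Slc13a5 were tested and limma called 0 of 5 in either direction (0 at an unadjusted p under 0.05), with Slc13a1 at 27.4% and 36.4%. Of the partners of Zfp366 and Adtrp, Esr1, the estrogen receptor gene, and Ctbp1 were at 0, and Nrip1, Tfpi and Aig1 below 0.5% on average.

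Icos, Cd101 and Zfp366 are known from leukocytes, so markers of the cell types a uterine preparation could hold are given beside them. H3K27me3 marks silent genes, so these are levels of the mark and not of expression. Most of the 10 fibroblast markers were free of the mark: 8 (Pdgfrb, Col1a1, Col1a2, Col3a1, Dcn, Lum, Vim and Fn1) were at 0 in all 12 lists, and Pdgfra (23.4% and 22.9%) and Thy1 (16.1% and 8.30%) did not pass. All 10 leukocyte markers were tested and limma called 0 (0 higher and 1 lower at an unadjusted p under 0.05), with a summed coverage of 688 in cKO and 685 in control. Ptprc held 67.9% and 71.1% and Cd4 99.7% and 99.3%. Of 5 tested epithelial markers Cdh1 rose (77.3% to 87.8%, adjusted p = 0.00677; 2 higher unadjusted). Of 5 endothelial markers Tek rose (1.26% to 10.1%, adjusted p = 0.0185; 4 higher unadjusted), and Pecam1 held 18.6% and 11.9%, higher in 6 of 6 pairs (adjusted p = 0.0630). At equal covered length limma called 0 of 23 tested markers (2 higher and 2 lower unadjusted). Of 3 smooth muscle markers it called 0 in the lists as deposited (0 higher and 1 lower unadjusted). The endothelial markers summed to 143 and 118 and the epithelial to 642 and 607, and their part in the gains was not tested.

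Across the 12 lists only the most alike distant gene of each member is given, and how many other genes come close was not counted. For each member the gene over 1 Mb away with the highest Pearson correlation of coverage over the 12 lists is a description, since all lists share the contrast that chose the members. Adtrp and Wwox were most like Slc14a2 (r = 0.987 for both) and Cd101 most like Mrln (0.980). Slc14a2 was most like Tprg (0.991), Icos like Kif6, a kinesin (0.991), Mrln like Fat4, a large cadherin (0.985), Slc13a4 like Tg, the thyroglobulin gene (0.984), Zfp366 like Cdh17 (0.983) and Reg4 like 2700049A03Rik (0.978).

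The B6CBAF1/J lists were not used to choose the 9 genes. They have 1 list per group and so no test, and the 3 comparisons share the GD0.5 list. That list was low for most members: Mrln 2.69%, Adtrp 3.27%, Icos 6.46%, Slc13a4 7.56%, Cd101 8.38%, Slc14a2 9.78%, Reg4 13.5%, Wwox 21.1% and Zfp366 38.1%. Counting genes at least 25 points above GD0.5, 2 of 9 passed that size at GD5.5 after natural mating, beside 5.58% of 9026 genes, 2 of 9 after a vasectomized mating, beside 4.64%, and 5 of 9 after progesterone, beside 5.53%. Among the 2739 genes whose GD0.5 coverage lay within the range of the members, the shares were 9.35%, 8.32% and 9.27%, a comparison added after the values were seen. The median difference of the 9 was 17.3, 17.3 and 26.8 points, and over all genes 0.178, 0 and 0.

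Cd101 differed most. It held 8.38% at GD0.5, 76.6% after natural mating, 67.0% after vasectomized mating and 92.6% after progesterone. The progesterone list has a peak of 26.9 kb, chr3:100971376-100998251, with a fold of 1.69 and a -log10 q of 2.28. This peak reaches into the lower end of the Cd101 window, and most of its length lies outside. It is the one peak past 2 over the 9 windows in these 4 lists. Adtrp held 3.27%, 26.4%, 20.6% and 75.7%, so its progesterone list stood far above the other 3. Slc13a4 held 7.56%, 31.7%, 36.6% and 49.9%, Icos 6.46%, 23.8%, 29.4% and 33.3%, and Mrln 2.69%, 35.3%, 25.4% and 35.3%. In these 5 genes GD0.5 was the lowest list, and progesterone was the highest or level with the highest. The sizes depended on peak handling. At equal covered length Adtrp was 24.3 points above GD0.5 after progesterone in place of 72.4. Mrln was 0.278 above after natural mating in place of 32.6, and Icos 0 after vasectomized mating in place of 23.0. Cd101, Mrln and Slc13a4 were still at least 25 points higher after progesterone. With peaks of a fold of at least 1.2, Adtrp and Slc13a4 differed by 0 in each comparison, and Cd101 by 16.1 to 18.2 points.

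The other 4 genes differed less from GD0.5, or in the other direction. Slc14a2, the first gene in the knockout comparison, held 9.78%, 13.1%, 12.5% and 16.6%, and Wwox 21.1%, 29.9%, 21.6% and 24.0%. Reg4 held 13.5% at GD0.5 and differed from it by 8.08 points after natural mating, -9.34 after vasectomized mating and 0.978 after progesterone. Zfp366 went the opposite way, from 38.1% at GD0.5 to 15.9%, 11.8% and 15.5%, differences of -22.1, -26.3 and -22.6 points. At equal covered length these were -38.1, -38.1 and -33.3, and with peaks of a fold of at least 1.2 they were -31.0 in each comparison. Between natural and vasectomized mating at GD5.5 the 9 genes differed by at most 17.4 points (Reg4), and 7 of 9 were higher after natural mating. The share over all genes is not given beside this count.

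Where the peaks lay was compared through the bases in at least 5 of 6 cKO lists and at most 1 control list. In Cd101 these bases come to 10.9 kb, of which peaks covered 0.512% at GD0.5, 74.4% after natural mating, 61.3% after vasectomized mating and 96.9% after progesterone. Of the Cd101 bases that were not more often covered in cKO, peaks covered more in each list, 45.6%, 85.7%, 91.1% and 100%. In Adtrp (24.3 kb) the shares of gained bases were 1.78%, 21.7%, 13.0% and 71.5%, and those of not gained bases 0%, 42.9%, 22.5% and 69.4%. The Adtrp upstream sequence printed above overlapped a peak in the natural mating and progesterone lists, and that of Slc13a4 in all but the GD0.5 list. In Slc14a2 (96.2 kb) the shares of gained bases were 1.34%, 4.18%, 2.31% and 8.73%, while peaks covered at least 20.2% of the bases that were not more often covered in cKO. So the peaks of Slc14a2 in these lists lay mostly outside those 96.2 kb. Bases in more cKO than control lists that fall short of the limits above enter neither share. In Zfp366 (7.17 kb) the share was 58.1% at GD0.5 and at most 10.5% in the other 3 lists.

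**Figure D5:**
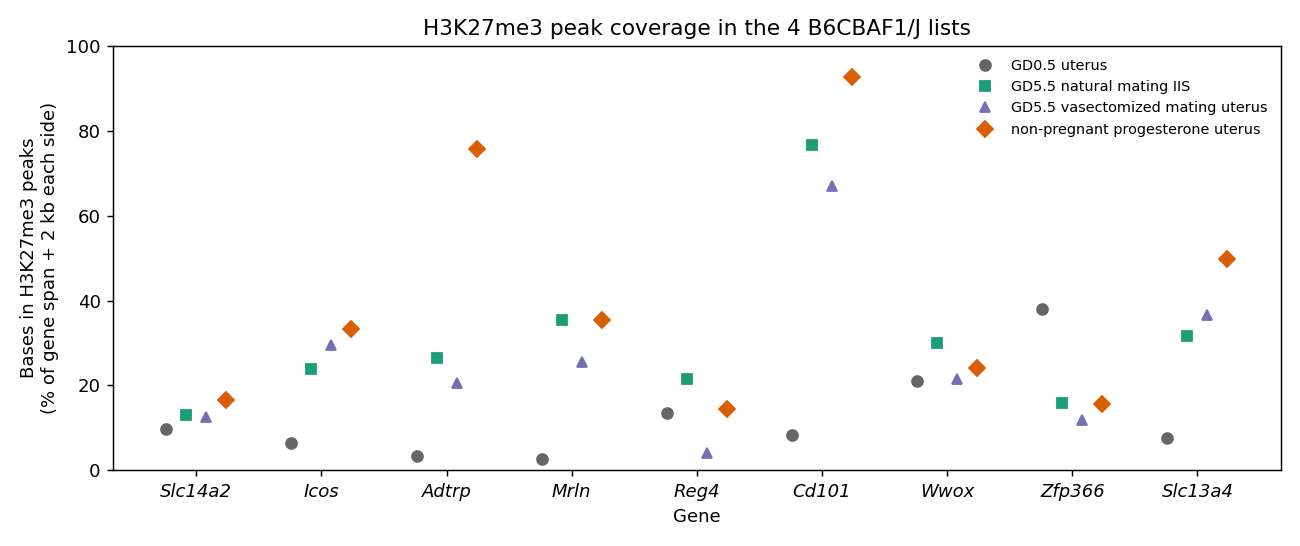
Coverage of each of the 9 genes (y axis, percent of the gene span plus 2 kb either side inside peaks) in the 4 B6CBAF1/J lists, 1 point per list. The GD0.5 point is lowest for Cd101, Adtrp, Slc13a4, Mrln, Icos, Slc14a2 and Wwox and highest for Zfp366, and the progesterone points of Cd101 (92.6%) and Adtrp (75.7%) stand highest.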

How the data were processed

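The members and all gene lists were chosen with earlier results of these data known. Per the submitters' processing notes, the authors aligned reads to mm10 with STAR 2.7.5c and called broad peaks with macs2 2.2.7.1; peak thresholds are not given in the sources used here. Per the labels, each of the 16 lists pools 3 samples, and the deposited columns give each peak's fold (a ratio to background), its -log10 q and its -log10 p. Of 80 samples 32 enter no list (20 of them inputs) and are not analysed here. Coverage was computed from peak positions over RefSeq gene spans with 2 kb flanks. limma 3.58.1 (R 4.3.3) was fitted to the 6 paired differences of every gene whose coverage averaged 5% or more over the 12 lists and varied between pairs, two-sided, with Benjamini-Hochberg adjustment, and tested on simulated data. Since only pooled lists exist, p-values measure the spread between pairs, which differ in stage, site and driver. Coverage levels were not compared between Kdm6b and B6CBAF1/J lists, whose typical peak lengths differ; bases gained in cKO were looked up in the B6CBAF1/J peaks. Named genes were all members, Hsd11b1 and the next 2 by p, neighbours called or adjacent, relatives called or among the 4 largest differences, and each member's most alike distant gene; other marker and relative names were added after their values were seen. The values of 1 neighbour are not reported here. Tables were made with python 3.11.15, numpy 2.4.6 and pandas 2.3.3, and figures with matplotlib 3.10.9. Alternatives are listed in the closing section.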

Additional observations from a re-analysis of the deposited data

Results flagged for a closer look

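In 27 groups of 6 values (the cKO lists, the control lists and the differences of each of the 9 genes), 1 held a value far from the rest. The GD8.5 difference of Cd101 was 63.5 points and stood apart from the other 5, which ran from 41.2 to 49.5; its distance to the nearest was 0.627 of the whole range. Chance marks about 1 in 20 such groups. Without that pair the mean difference of Cd101 was 45.9 points.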

How the results depend on the processing

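The mean differences of the 9 genes stayed positive in all 6 pairs at equal covered length (26.7 to 55.8 points), without flanks (23.3 to 56.5), with 5 kb flanks (up to 50.4) and after subtraction of each pair's median (25.5 to 51.3). With peaks of a fold of at least 1.2 they were 23.5 to 60.9, positive in at least 5 pairs. With any 1 pair left out the means ran from 24.9 (Reg4 and Zfp366) to 53.9 (Mrln). With peaks of a -log10 q of at least 2 the genes were bare, apart from the control peaks at Mrln (-0.497). Genes called higher and lower over all tested numbered 282 and 429 at equal covered length, 175 and 113 at a fold of 1.2, and 0 and 4 at a -log10 q of 2 (limma, 0 and 171 at an unadjusted p under 0.05, 971 genes tested). Without flanks 515 were lower, without the coverage filter 545, and with a pair left out 457 to 582 were higher and 346 to 814 lower. Neighbours called higher numbered 3 at equal length, 1 at the fold minimum, 0 at the q minimum (1 tested), 3 unpaired and 4 to 5 with a pair left out. Relatives called higher numbered 3, 3 and 0 under the same 3 peak settings and 4 to 7 with a pair left out. Relatives called lower numbered 0 under each of these and without flanks, 1 without the coverage filter, 4 with the median subtracted and 0 to 2 with a pair left out. Markers called higher numbered 0 under the 3 peak settings, 5 with 5 kb flanks, 4 with the median subtracted and 1 to 2 with a pair left out, and lower 1 with 5 kb flanks, 1 unpaired and 2 with the median subtracted. Of the B6CBAF1/J counts, natural mating gave 1 at equal length and 0 at the fold minimum, vasectomized mating 2 and 0, and progesterone 3 and 0. The cause of these shifts was not tested, beyond fewer genes or pairs entering a fit. No paired analysis was possible by replicate number, because each list pools its 3 samples. Read depth is unknown, so no counting error can be given.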
